A study of Mus musculus with 11 samples.

Results

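Chromatin accessibility at 38 interferon-stimulated genes was examined in 4 subsets of mouse CD4 T cells by ATAC-seq, an assay in which a transposase inserts sequencing adapters into open DNA. The 38 genes are a fixed list of genes that type I interferon induces, its receptor chains and its signalling genes. Their regions were the peaks of the deposited table (mm10) whose centre lay nearest to a RefSeq start site of a listed gene, and this gave 91 of 38509 peaks. Anergic cells (CD44high FOXP3-, CD73high FR4high and NRP1+) were profiled in 3 libraries, Treg cells (FOXP3+ CD25+) in 3, Teff cells (CD44high FOXP3-, CD73low FR4low) in 3 and naive cells (CD44low) in 2. All 4 groups came from untreated wildtype C57BL/6 Foxp3-GFP polyclonal mice, from spleen and lymph node mixed together, and each library was made from sorted cells. The sort thus rests on surface markers and the Foxp3 reporter, and no group was treated with interferon. No label states that a group's libraries came from different animals, so the p-values cover the spread of these libraries alone, and part of it may be technical.

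The libraries held 14668425 to 68818591 reads in peaks (Treg 2 and anergic 2), and every value was a whole number of reads times a factor of its library. Values below are this deposited, depth-scaled signal unless stated otherwise. Libraries of 1 group correlated at 0.973 to 0.986 across peaks on the log2 scale. Peaks lay near 4 of 5 markers of CD4 T cells, and summed signal near Cd44 was 6115 to 6912 in anergic, 3167 to 3852 in Treg, 3259 to 4449 in Teff and 1734 to 1879 in naive libraries. The peak nearest to the start of Foxp3, which defines Treg cells, had 96.1 to 184 in anergic, 1118 to 1597 in Treg, 14.0 to 63.3 in Teff and 7.74 to 15.4 in naive libraries. That of Il2ra, which encodes CD25, had 280.2 to 290.5 in anergic, 556 to 705 in Treg, 368 to 482 in Teff and 310.5 to 389 in naive libraries. That of Ikzf2, also listed as a Treg marker, did not separate Treg from anergic or Teff libraries. It had 1890 to 1979 in anergic, 1526 to 2274 in Treg, 1462 to 1765 in Teff and 804 to 874 in naive libraries. Summed signal near the 3 Treg markers was 10368 to 10709 in anergic and 12195 to 13840 in Treg libraries. This sum was 6672 to 8064 in Teff and 4522 to 4838 in naive libraries. No peak lay near the B cell markers Cd79a, Ms4a1 and Pax5. Summed signal near the 2 B cell markers that had a peak was 368 to 466 in anergic, 537 to 562 in Treg, 377 to 515 in Teff and 638 to 670 in naive libraries. Of 7 myeloid markers 4 had a peak, with sums of 989 to 1108 in anergic, 1103 to 1224 in Treg, 1049 to 1084 in Teff and 1257 to 1511 in naive libraries. Members of this list differed in direction. The Cd68 peak was highest in anergic libraries, with 319.7 to 389.6, against 129.8 to 235.4 in Treg, 166 to 209.8 in Teff and 174.2 to 244.6 in naive libraries. That of Itgam had 140.9 to 212.1 in naive libraries and at most 57.5 in the others. Neither the peak nearest to the start of Spi1 nor that of Fcer1g was highest in anergic libraries. Of 4 plasmacytoid dendritic cell markers, among them Bst2 of the gene list, Siglech had no peak, and the other 3 summed to 3009 to 3436 in anergic, 3393 to 3514 in Treg, 3248 to 3352 in Teff and 4070.5 to 4112 in naive libraries. Of 6 markers of CD8, NK and innate-like T cells, Cd8a, Ncr1 and Klrd1 had no peak, and the other 3 summed to 20514 to 25839 in anergic, 18807 to 24191 in Treg, 24607 to 28505 in Teff and 23012 to 23595 in naive libraries. These 3 went different ways. The peak at the start of Zbtb16, a marker of innate-like T cells, had 132 to 183 in anergic, 30.4 to 68.1 in Treg, 733 to 1032 in Teff and 14.6 to 31.7 in naive libraries. The peak nearest to the start of Klrb1c, an NK and NKT cell marker, had 333 to 367 in anergic, 247 to 381 in Treg, 813 to 1075 in Teff and 196 to 227 in naive libraries. The peak of Cd8b1 had 115 to 285 in anergic, 613 to 750.0 in Treg, 179 to 227 in Teff and 1117 to 1149.8 in naive libraries. The part of such cells in the results below was not tested.

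Type I interferon binds a receptor made of the IFNAR1 and IFNAR2 chains, which activates the kinases JAK1 and TYK2. These phosphorylate STAT proteins, among them STAT2, which join IRF9 and bind the interferon-stimulated response element (ISRE) at the promoters of many genes whose products block virus replication. T cells express many of these genes at a low level without infection, through tonic interferon, and raise them after exposure to it. Open chromatin at a start site marks a promoter that factors can reach, and it does not by itself measure transcription.

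All 38 genes were found in RefSeq and 34 of them had a peak. Ifit3, Oas1a, Oasl1 and Ifi44 had none, and their starts lay 32683, 70157, 19096 and 442857 bases from the nearest peak. Of the 91 peaks, 43 were start-site peaks, with a centre within 1000 bases of a start, and 48 were distal. Start-site peaks made up 47.3% of the peaks of these genes and 33.2% of all peaks. A start-site peak was present for 31 genes, 15 genes had no other kind, and Ifit1, Oas2 and Parp9 had distal peaks only. The starts of Ifit1 and Parp9 were nevertheless open. A peak 90 bases from the Ifit1 start counts under Ifit1bl2, whose start is 56 bases away, and 1 that lies 303 bases from the Parp9 start counts under Dtx3l, which is divergent to Parp9.

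The ISRE core, GAAANNGAAA on either strand, was present in 22 of the 43 start-site peaks (51.2%), those of 21 genes, against 8.18% of all 12766 start-site peaks. It was present in 7 of the 48 distal peaks (14.6%), against 6.88% of all distal peaks. At least 2 cores, which may overlap, were found in 6 of the start-site peaks (14.0%), against 0.979% of all start-site peaks. The peaks of Zbp1 and Rtp4 held 4 each and that of Isg15 held 3. The windows of 30 bases around the core nearest to the start are shown for 9 of these peaks, because this element was more frequent in these peaks than in start-site peaks as a whole, although 21 of the 43 lacked it. They were read from the GRCm38 reference 5′ to 3′ on the strand of the core, whose letters are in capitals.
Isg15, chr4:156200865-156200894, minus strand: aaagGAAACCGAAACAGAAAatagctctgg
Usp18, chr6:121245837-121245866, plus strand: ggatctagggGAAAACGAAAgcttggcggt
Stat2, chr10:128270266-128270295, minus strand: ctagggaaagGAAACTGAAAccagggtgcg
Ifih1, chr2:62646204-62646233, minus strand: gaagagaatcGAAACAGAAAccgatctgtg
Ddx58, chr4:40239804-40239833, plus strand: ctggccatagGAAATCGAAActgcctcagg
Rsad2, chr12:26456553-26456582, plus strand: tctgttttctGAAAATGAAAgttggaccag
Oasl2, chr5:114897459-114897488, minus strand: gacaagaattGAAAGTGAAActgcagggag
Zbp1, chr2:173218949-173218978, plus strand: gcttttcaaaGAAAGAGAAAATGAAActtt
Bst2, chr8:71537577-71537606, minus strand: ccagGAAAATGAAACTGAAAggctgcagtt
In Isg15, Zbp1 and Bst2 a further GAAA repeat overlaps the core, so the capitals run past 10 bases.

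The core of the gamma-activated sequence, GAS (TTCNNNGAA), was present in 23.3% of the start-site peaks of these genes and in 15.5% of all start-site peaks. The AP-1 motif TGANTCA was present in 25.6% and 13.8% of the same peaks, and in 25.0% of the distal peaks of these genes against 18.6% of all distal peaks. The composite of GAAA directly before an AP-1 motif, known from sites that BATF and IRF4 share, was in none of the 91 peaks and in 0.411% of all peaks. The start-site peaks of these genes were shorter than those of all genes, with a median of 616 against 844 bases. RefSeq promoters, which run from 250 bases before to 50 after a start, were given for 29 of the 38 genes, and 15 of these (51.7%) held the core, against 3.99% of 27025 promoters. Ifit1, Ifit3 and Oas1a, none with a start-site peak of its own, held 2 cores each, while the promoters of Ifi44 and Oasl1 held none.

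**Figure D1:**
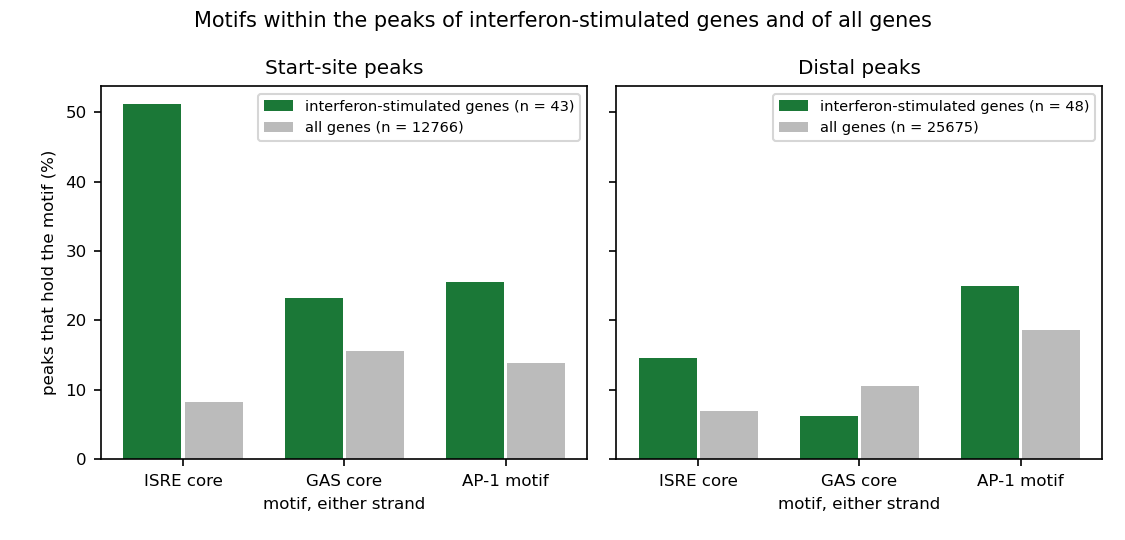
Bars give the share of peaks that hold a motif on either strand, in percent, for start-site peaks (left) and distal peaks (right) of interferon-stimulated genes (green) and of all genes (grey). The ISRE core was in 51.2% of the start-site peaks of interferon-stimulated genes and in 8.18% of all start-site peaks.

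The start-site peaks of interferon-stimulated genes had signal in all 4 subsets and differed little between them, while a few distal peaks differed strongly. In bulk cells, fewer cells with an open site and a site less open per cell cannot be told apart. The highest and lowest group means of a peak differed by a median of 0.49 on the log2(signal + 1) scale at start-site peaks of these genes and by 0.43 at all start-site peaks. At distal peaks the median difference was 0.90 for these genes and 1.15 for all genes. The means differed by at least 1 (2-fold) at 5 start-site peaks, among them both of Oasl2 and that of Isg15, and at 18 distal peaks. Tests were made with limma on log2(signal + 1) over 38493 peaks, and a peak passed at a Benjamini-Hochberg adjusted p under 0.05. In any of the 6 comparisons between groups, 61 of the 91 peaks (67.0%) passed, against 73.9% of all peaks. These were 27 of 43 start-site peaks (62.8%), against 62.9% of all start-site peaks, and 34 of 48 distal peaks (70.8%), against 79.4% of all distal peaks. Both shares are close to or under the background, so the list as a whole did not stand out. Peaks of Dhx58, Stat2, Bst2, Xaf1, Rtp4 and Oas2 passed in no comparison, and 28 genes had a peak that did. The comparisons gave 154 calls over the 91 peaks, of which 82 held with any 1 library left out and 72 did not, and the libraries that end a call are named beside it below.

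**Figure D2:**
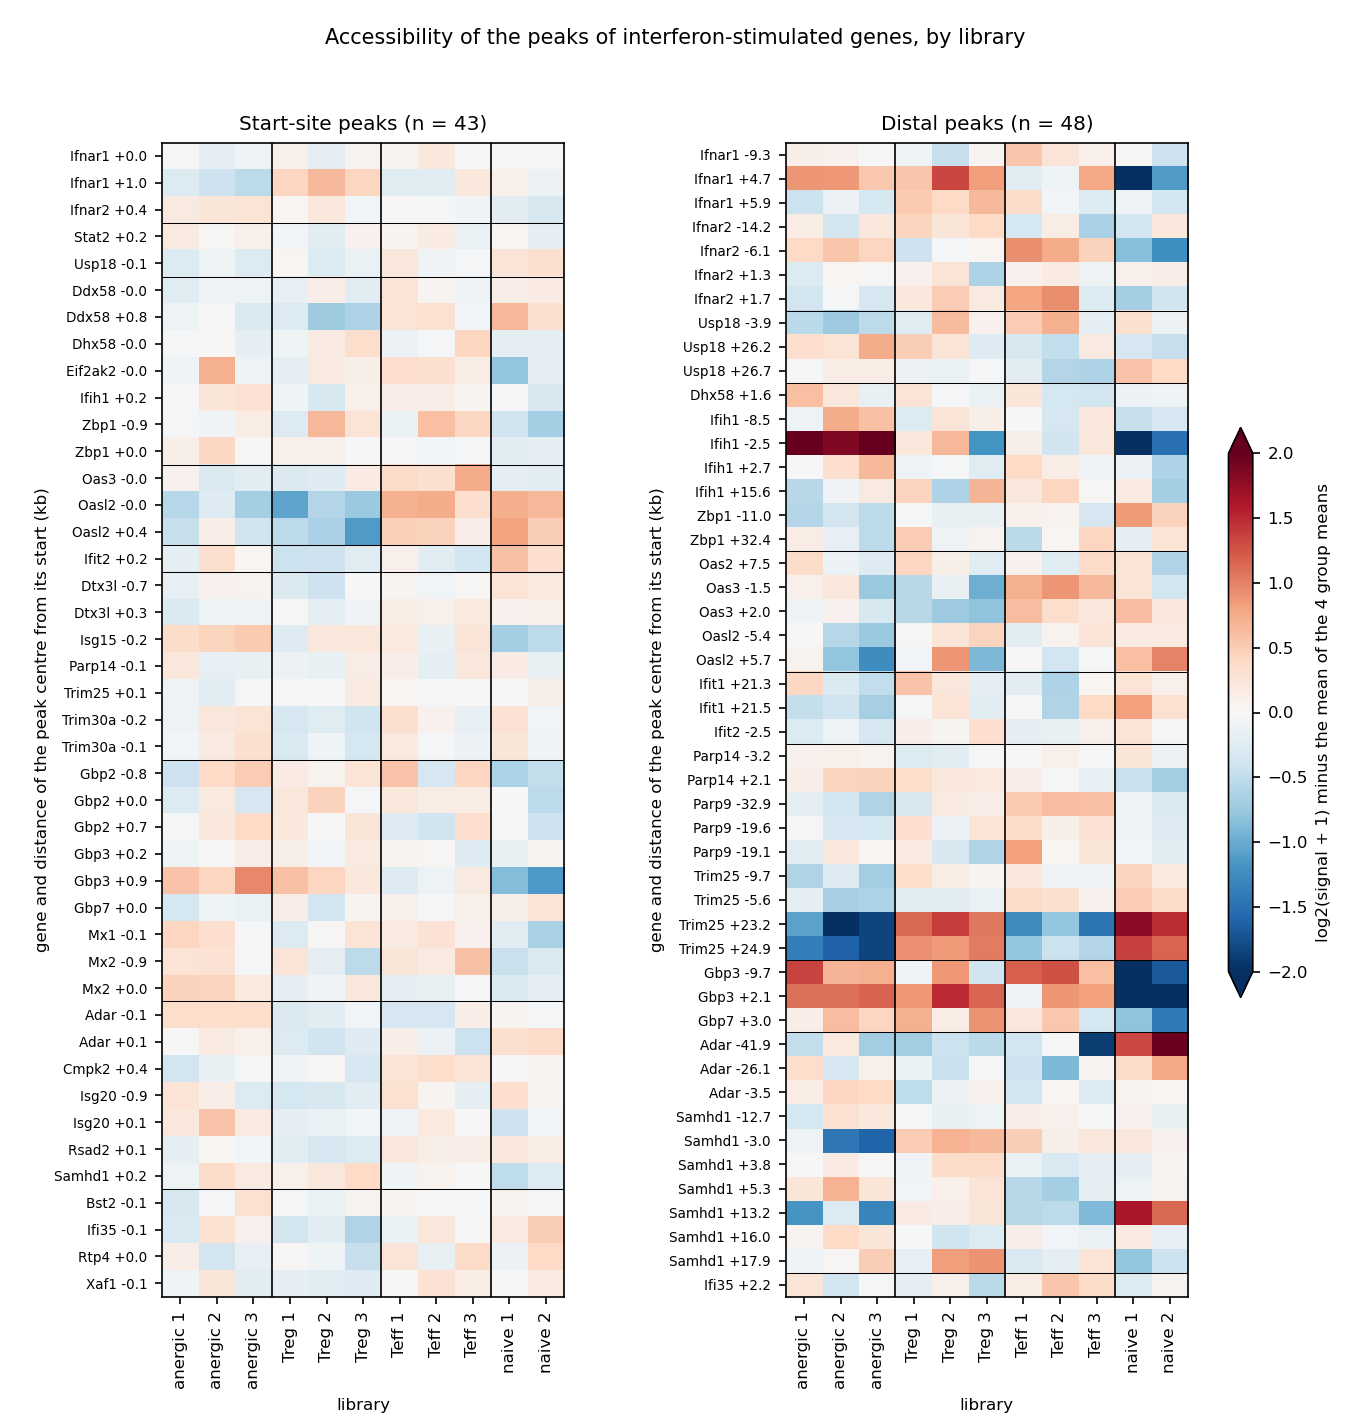
Each row is a peak, named by its gene and the signed distance of its centre from the start in kb (negative before the start), and each column a library; colour gives log2(signal + 1) minus the mean of the 4 group means, cut at 2 either way. Start-site peaks (left, n = 43) are pale in most rows, and the strong colours are at distal peaks (right, n = 48) of Ifih1, Trim25, Gbp3, Ifnar1, Adar and Samhd1.

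**Figure D3:**
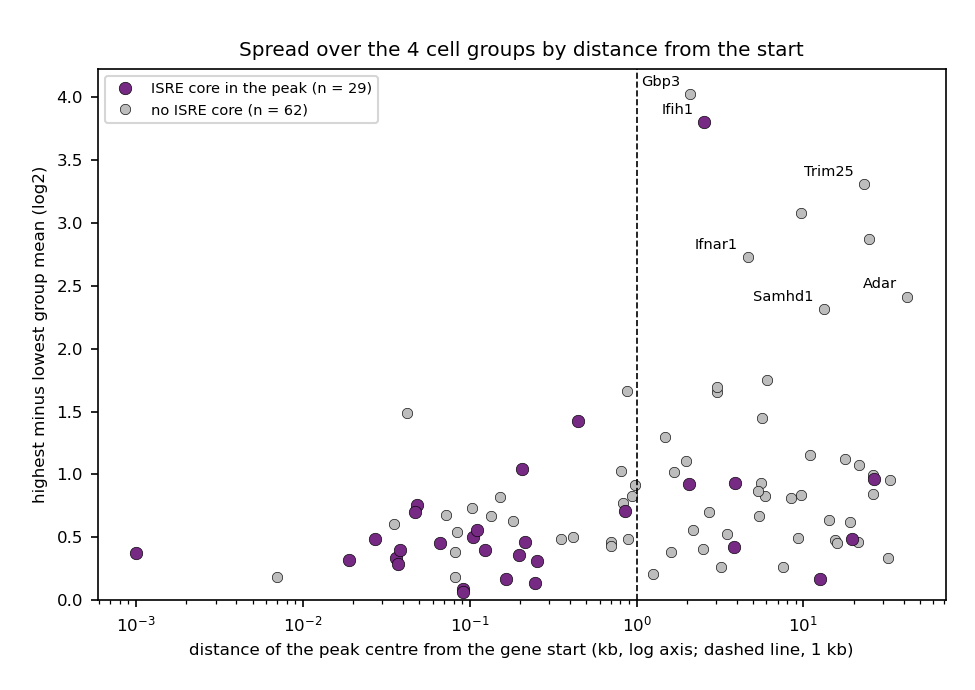
Each point is 1 of the 91 peaks, placed by the distance of its centre from the gene start in kb (log axis) and by the difference between its highest and lowest group mean (log2); peaks that hold an ISRE core (n = 29) are purple and the others (n = 62) grey. Differences above 2 lie beyond 1 kb, and of the peaks named there Ifih1 alone (3.80) holds a core.

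Signal per kb of peak allows levels to be set side by side. Start-site peaks of interferon-stimulated genes had a median of 761 signal per kb (quartiles 622 and 1172), against 1335 (692 and 2401) for all start-site peaks. The highest was the Ifnar1 promoter at 3512 and the lowest the peak 0.88 kb into Gbp3 at 348.

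The receptor genes differed more at their distal peaks than at their promoters. The Ifnar1 start-site peak (chr16:91484517-91485927, 5′ UTR) had 4896, 4360.0 and 4611 in the anergic libraries, 5299.8, 4362 and 5217 in the Treg libraries, 5142, 5748 and 4874 in the Teff libraries and 5002 and 5002 in the naive libraries. The anergic libraries lay below both naive libraries, all other pairs of groups overlapped, and no comparison passed. An intronic peak 4.68 kb into Ifnar1 (chr16:91489736-91490057) had 154, 152 and 121 in anergic cells, 122, 211 and 149 in Treg, 71.3, 76.8 and 142 in Teff and 13.8 and 37.2 in naive cells. Both naive libraries lay below all others, and the log2 fold change ± SE against naive cells was 2.58 ± 0.37, adjusted p = 4.7e-06 in anergic, 2.73 ± 0.37, adjusted p = 3.9e-06 in Treg and 1.97 ± 0.37, adjusted p = 0.000215 in Teff cells. The next intronic peak, 5.86 kb in, was highest in Treg cells, with 323, 402 and 342 in anergic cells, 631, 575 and 688 in Treg, 562, 421 and 360.0 in Teff and 405 and 336 in naive cells. Treg cells did not overlap the other groups, with 0.77 ± 0.19, adjusted p = 0.00189 against naive cells, and anergic cells fell by 0.83 relative to Treg cells (adjusted p = 0.000607). The rise over Teff cells (0.51 ± 0.17, adjusted p = 0.021) was lost without Treg 1, Treg 3, Teff 2 or Teff 3 (adjusted p 0.054 to 0.108). A smaller peak 0.977 kb into Ifnar1 was also lower in anergic than in Treg cells (-0.91 ± 0.23, adjusted p = 0.00351). Its difference between Treg and Teff cells (0.60 ± 0.23, adjusted p = 0.0466) was lost without anergic 2, anergic 3, Treg 1, Treg 2, Treg 3, Teff 1, Teff 2, naive 1 or naive 2 (adjusted p 0.051 to 0.157). The peak 9.30 kb before Ifnar1 was lower in Treg than in Teff cells (-0.47 ± 0.14, adjusted p = 0.0126), and this was lost without Treg 2 or Teff 1 (adjusted p 0.093 to 0.094).

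Ifnar2 encodes the chain that binds interferon most tightly. Its start-site peak (chr16:91372636-91373761, intron 0.41 kb in) had 786, 826 and 838 in the anergic libraries, 717, 802 and 669 in the Treg libraries, 705, 683 and 660.0 in the Teff libraries and 593 and 558 in the naive libraries. Anergic libraries lay above naive libraries without overlap (0.50 ± 0.14, adjusted p = 0.00368). Treg cells passed narrowly against naive cells (0.34 ± 0.14, adjusted p = 0.0481), and this was lost without anergic 3, Treg 1, Treg 2, Teff 1, Teff 2, Teff 3, naive 1 or naive 2 (adjusted p 0.0504 to 0.216). A peak 6.08 kb before Ifnar2 (chr16:91366416-91366981, intergenic, with 2 AP-1 motifs) had 532, 595 and 547 in anergic cells, 304, 392 and 413 in Treg, 768, 676 and 558 in Teff and 223 and 173 in naive cells. Naive cells were lowest and Treg cells next, and neither overlapped anergic or Teff cells. Against naive cells the change was 1.50 ± 0.18, adjusted p = 4.5e-07 in anergic, 0.90 ± 0.18, adjusted p = 0.000406 in Treg and 1.75 ± 0.18, adjusted p = 1.1e-07 in Teff cells. Treg cells were lower than Teff cells (-0.85 ± 0.16, adjusted p = 0.000379), and anergic cells were higher than Treg cells (0.60 ± 0.16, adjusted p = 0.00686), a call lost without Treg 1 (adjusted p = 0.052). Of the 10 receptor peaks, 3 rose and 0 fell in anergic against naive cells, 5 rose in Treg and 4 in Teff cells, and none passed between anergic and Teff cells. These are 30%, 50% and 40% of the receptor peaks. Of all peaks, 25.3%, 22.3% and 22.7% rose in the same comparisons with naive cells, and 50.5%, 45.3% and 40.1% passed in either direction.

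Stat2, the subunit of the ISRE-binding complex, had 1 peak (chr10:128270170-128271156, 5′ UTR) with 3238, 2924 and 3060.2 in the anergic libraries, 2765, 2463 and 3026 in the Treg libraries, 2980.2, 3210.2 and 2618 in the Teff libraries and 2935 and 2529 in the naive libraries. All groups overlapped and no comparison passed. Usp18 removes ISG15 from proteins and dampens the receptor at IFNAR2. Its promoter peak (chr6:121245548-121246054) had 705, 800.2 and 705 in anergic cells, 874, 705 and 777 in Treg, 994, 809 and 837 in Teff and 1016 and 1065 in naive cells. Naive cells were highest, and anergic (-0.50 ± 0.14, adjusted p = 0.00531) and Treg cells (-0.41 ± 0.14, adjusted p = 0.0222) were lower than naive cells. The Treg call was lost without Treg 2, naive 1 or naive 2 (adjusted p 0.075 to 0.124), and under scaling to total reads (adjusted p = 0.17). A peak 26.7 kb downstream of the Usp18 start (chr6:121272329-121272847, intergenic, 27.7 kb from the start of Slc6a13) had 632, 716 and 719 in anergic cells, 599, 589.6 and 632 in Treg, 555, 433 and 420.0 in Teff and 960.3 and 858 in naive cells. Teff libraries were lowest and naive libraries highest, with no overlap among Teff, anergic and naive cells. The log2 fold change was 0.56 ± 0.14, adjusted p = 0.00249 for anergic against Teff cells and -0.96 ± 0.15, adjusted p = 2.7e-05 for Teff against naive cells. Treg cells were also higher than Teff cells at this peak (0.38, adjusted p = 0.0353). That call was lost without Treg 1, Treg 2, Treg 3, Teff 2 or Teff 3 (adjusted p 0.0597 to 0.139). A faint Usp18 peak 3.91 kb before the start, with 1 ISRE core, was lower in anergic than in Teff cells (-0.93 ± 0.31, adjusted p = 0.0225), a call lost without anergic 2, Teff 1 or Teff 2 (adjusted p 0.064 to 0.13).

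The peak with the largest rise in anergic cells over both Teff and Treg cells was at Ifih1, which encodes MDA5, a sensor of long double-stranded RNA. An intergenic peak 2.53 kb before its start had 307, 267 and 297 in the anergic libraries, 85.6, 117 and 31.7 in the Treg libraries, 79.6, 55.3 and 86.7 in the Teff libraries and 15.4 and 25.5 in the naive libraries. The 3 anergic libraries lay above all others and the 2 naive libraries below all others. The log2 fold change of anergic cells was 1.98 ± 0.36, adjusted p = 0.000178 against Teff, 2.07 ± 0.36, adjusted p = 0.000158 against Treg and 3.80 ± 0.41, adjusted p = 6.3e-08 against naive cells. Treg (1.73 ± 0.41, adjusted p = 0.00145) and Teff cells (1.82 ± 0.41, adjusted p = 0.00106) also rose relative to naive cells. Among the distal peaks whose group means spanned over 2 (log2), this one alone held an ISRE core, and its whole sequence is shown for that reason, from GRCm38 on the plus strand, with the AP-1 motif and the core, which lies on the minus strand, in capitals.
Ifih1, chr2:62648640-62648927, plus strand: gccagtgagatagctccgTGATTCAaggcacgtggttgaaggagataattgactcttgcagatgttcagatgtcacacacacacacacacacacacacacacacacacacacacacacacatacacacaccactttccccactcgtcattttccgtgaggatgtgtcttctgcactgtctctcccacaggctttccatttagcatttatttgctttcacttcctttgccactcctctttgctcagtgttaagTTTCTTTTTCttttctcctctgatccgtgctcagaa
The Ifih1 start-site peak (chr2:62645572-62646545, 5′ UTR, 1 core) had 935, 1094 and 1133 in anergic cells, 876, 741 and 998 in Treg, 1017, 1022 and 962 in Teff and 906 and 740.2 in naive cells. Anergic cells passed narrowly against naive cells (0.36 ± 0.15, adjusted p = 0.0468), and the call was lost without anergic 2, anergic 3, Treg 1, Teff 1, Teff 2, Teff 3 or naive 2 (adjusted p 0.05003 to 0.385). In all, 4 of the 5 Ifih1 peaks passed as higher in anergic than in naive cells. The other 2 lie 8.47 kb before the start and 2.72 kb into the gene, and their calls were lost without anergic 2, anergic 3, naive 1 or naive 2 (adjusted p 0.077 to 0.137) and without anergic 2, anergic 3 or naive 2 (adjusted p 0.059 to 0.295).

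**Figure D4:**
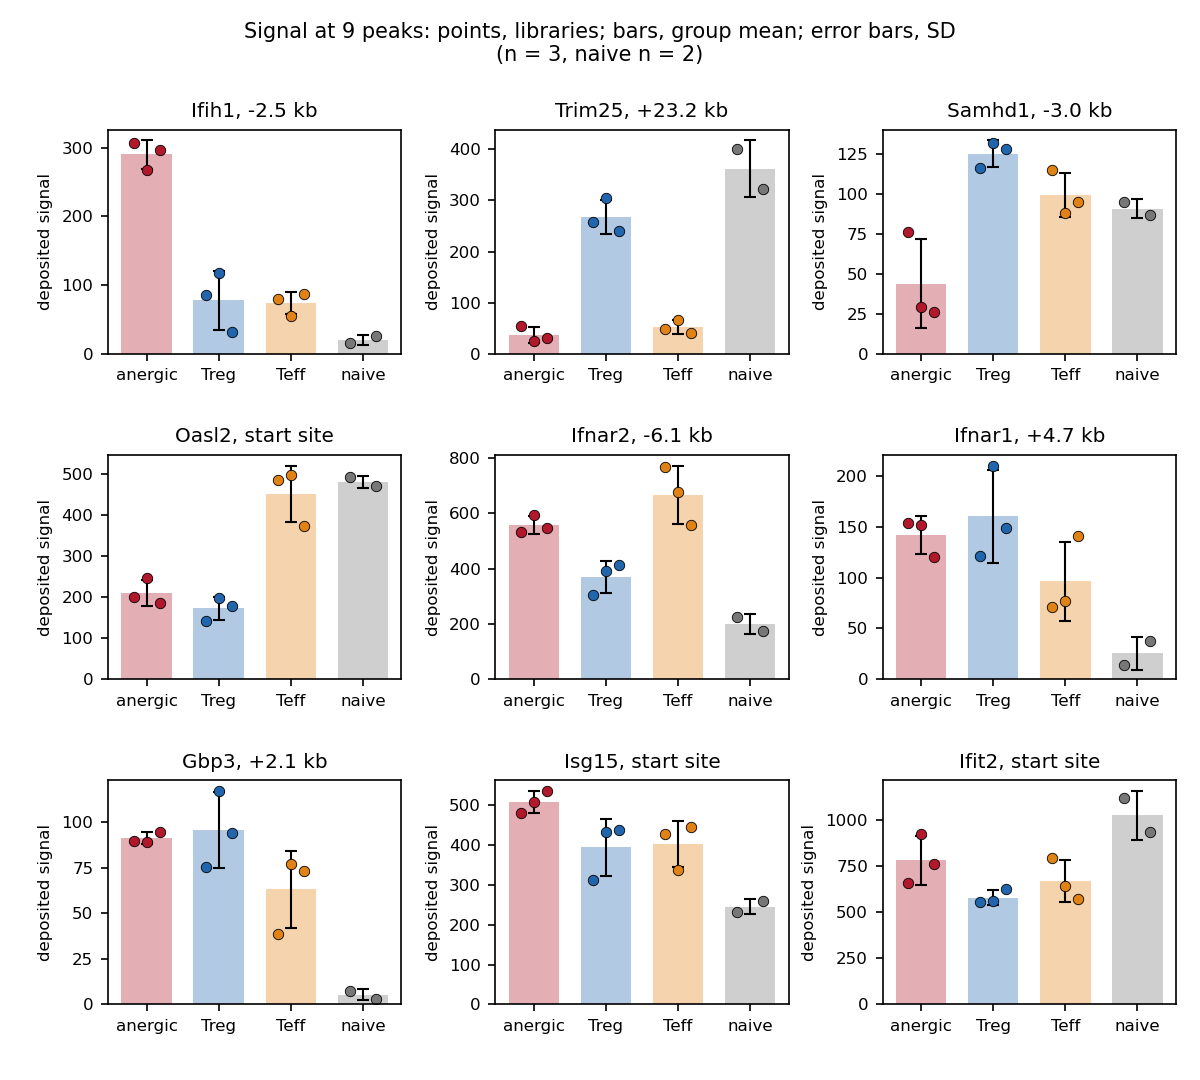
Deposited signal at 9 peaks in anergic, Treg, Teff and naive libraries: points are libraries, bars group means and error bars the SD (n = 3, naive n = 2). The anergic libraries stand above all others at Ifih1, anergic and Teff libraries are low at Trim25, anergic and Treg libraries are low at Oasl2, and naive libraries are lowest at both receptor genes, Gbp3 and Isg15.

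Ddx58 encodes RIG-I, a sensor of viral RNA ends. Its start-site peak (chr4:40239576-40240149) had 355, 399 and 392 in anergic cells, 374, 459.8 and 362 in Treg, 505, 439 and 395 in Teff and 461 and 470.0 in naive cells. Anergic and Treg libraries lay below both naive libraries, the other pairs of groups overlapped, and no comparison passed. An intronic peak 0.808 kb in had 391, 418 and 345 in anergic cells, 347, 255 and 275 in Treg, 510.2, 518 and 403 in Teff and 664 and 526 in naive cells. Treg cells were lower than Teff (-0.71 ± 0.16, adjusted p = 0.00207) and naive cells (-1.02 ± 0.18, adjusted p = 0.000101), each without overlap. Anergic cells were lower than naive cells (-0.62 ± 0.18, adjusted p = 0.00696), a call lost without naive 1 (adjusted p = 0.133). Zbp1 senses nucleic acids in the Z form and can start cell death. Its promoter, with 4 ISRE cores, passed in 1 comparison, anergic against naive cells (0.40 ± 0.14, adjusted p = 0.0231), and not without anergic 2, naive 1 or naive 2 (adjusted p 0.082 to 0.109). A peak 11 kb before Zbp1, inside an intron of Pmepa1 (chr2:173229431-173230410), had 846, 989 and 884 in anergic cells, 1250.1, 1143 and 1151 in Treg, 1367, 1335 and 1013 in Teff and 2300.1 and 1757 in naive cells. Naive libraries were highest and anergic libraries lowest, and the change was -1.15 ± 0.15, adjusted p = 8.8e-07 in anergic, -0.77 ± 0.15, adjusted p = 0.000214 in Treg and -0.71 ± 0.15, adjusted p = 0.000518 in Teff cells against naive cells. Its lower signal in anergic than in Treg cells (-0.38 ± 0.13, adjusted p = 0.0282) was lost without anergic 1, anergic 3, Treg 1 or Treg 3 (adjusted p 0.0503 to 0.098). Its assignment to Zbp1 rests on distance alone. A peak 0.941 kb before Zbp1 was higher in Teff than in naive cells (0.83 ± 0.30, adjusted p = 0.0296), a call lost without Teff 2, Teff 3, naive 1 or naive 2 (adjusted p 0.059 to 0.174). Eif2ak2, the kinase PKR that stops translation, passed in Teff against naive cells (0.76 ± 0.28, adjusted p = 0.0352), a call lost without Teff 1, Teff 2 or naive 1 (adjusted p 0.079 to 0.354). Both peaks of Dhx58, which encodes LGP2, passed in no comparison.

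OAS enzymes make oligoadenylates that switch on RNase L. Their peaks were lower in anergic and Treg than in Teff cells wherever a peak passed in those comparisons. All such peaks were at Oasl2 or Oas3. The Oasl2 start (chr5:114896703-114897081), with no ISRE core, had 199, 246 and 185 in the anergic libraries, 142, 198 and 177 in the Treg libraries, 485, 498 and 373 in the Teff libraries and 492 and 471 in the naive libraries. Anergic and Treg libraries all lay below every Teff and naive library. Against Teff cells the change was -1.10 ± 0.18, adjusted p = 5.1e-05 in anergic and -1.39 ± 0.18, adjusted p = 4.3e-06 in Treg cells, and against naive cells -1.20 ± 0.20, adjusted p = 3.0e-05 and -1.49 ± 0.20, adjusted p = 3.3e-06. The neighbouring peak 0.444 kb into Oasl2, which holds 2 cores, had 199, 299.9 and 208 in anergic cells, 191, 175 and 124 in Treg, 384, 378 and 302 in Teff and 483 and 389 in naive cells, with the same groups low. It changed by -1.13 ± 0.20, adjusted p = 0.00018 in Treg cells against Teff cells. In anergic cells it changed by -0.60 ± 0.20, adjusted p = 0.024, a call lost without anergic 1, anergic 3, Teff 1 or Teff 2 (adjusted p 0.085 to 0.097). Anergic cells were higher than Treg cells there by 0.52 ± 0.20, adjusted p = 0.0494, which did not pass with edgeR (adjusted p = 0.084) or scaling to total reads (adjusted p = 0.16), and was lost without anergic 2, anergic 3, Treg 2, Treg 3, Teff 1, Teff 2, naive 1 or naive 2 (adjusted p 0.051 to 0.246). A peak 5.67 kb into Oasl2 was lower in anergic than in naive cells (-1.44 ± 0.49, adjusted p = 0.0173), a call lost without anergic 3 or naive 2 (adjusted p 0.074 to 0.126). The peak 5.44 kb before it was lower in anergic than in Treg cells (-0.67 ± 0.24, adjusted p = 0.033), a call lost without anergic 2, anergic 3, Treg 2 or Treg 3 (adjusted p 0.073 to 0.15).

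Oas3 carried the widest OAS peak, 1.97 kb into the gene (chr5:120775290-120776092, intron), with 1635, 1865 and 1406 in anergic cells, 1197, 1062 and 1010.4 in Treg, 2705, 2246 and 2027 in Teff and 2705 and 2037 in naive cells. Treg libraries were lowest, anergic libraries lay between, and Teff and naive libraries were highest, with no overlap between Treg, anergic and Teff cells. Treg cells fell relative to Teff (-1.09 ± 0.13, adjusted p = 2.1e-06) and naive cells (-1.11 ± 0.15, adjusted p = 3.0e-06), and anergic cells were higher than Treg (0.58 ± 0.13, adjusted p = 0.00204) and lower than Teff cells (-0.51 ± 0.13, adjusted p = 0.00494). The peak 1.49 kb before Oas3 was lower in Treg than in Teff cells (-1.30 ± 0.32, adjusted p = 0.00313). For anergic against Teff cells it gave -0.89 ± 0.32, adjusted p = 0.0349, a call lost without anergic 3, Teff 1, Teff 2 or Teff 3 (adjusted p 0.053 to 0.215). The Oas3 promoter and the 1 Oas2 peak passed in no comparison. Of the 8 OAS peaks, 4 fell and 0 rose in anergic against Teff cells, 4 fell in Treg against Teff cells, and 4 fell in anergic and 3 in Treg against naive cells. These calls were at Oasl2 and Oas3 alone, and Oas1a and Oasl1 had no peak, so the counts do not describe the whole family. Of all peaks, 16.8% fell in anergic and 18.2% in Treg against Teff cells, and 25.1% and 23.0% against naive cells. None of the 8 passed between Teff and naive cells. The Zbtb16 and Klrb1c peaks were also higher in Teff than in anergic and Treg libraries, and they were low in naive libraries. In naive libraries the Oasl2 start-site peaks and the Oas3 peak 1.97 kb in were high. The Oas3 peak 1.49 kb before the start had 86.9 and 56.5 there, against 115 to 135 in Teff libraries. The part of innate-like cells in the OAS values was not tested.

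IFIT proteins bind foreign RNA. The Ifit2 start (chr19:34550491-34551201, 5′ UTR) had 655, 922 and 760.3 in the anergic libraries, 552, 558 and 625 in the Treg libraries, 793, 638 and 572 in the Teff libraries and 1117 and 931 in the naive libraries. All other libraries lay below both naive libraries, and the change was -0.82 ± 0.17, adjusted p = 0.000395 in Treg and -0.62 ± 0.17, adjusted p = 0.00483 in Teff cells. Anergic cells passed narrowly against naive cells (-0.40 ± 0.17, adjusted p = 0.0499). The anergic call was lost without anergic 1, anergic 3, Treg 1, Treg 2, Treg 3 or Teff 2 (adjusted p 0.056 to 0.186), and also without naive 1. The Teff call was lost without naive 1 (adjusted p = 0.093). Anergic cells were higher than Treg cells at this peak (0.42 ± 0.15, adjusted p = 0.0349), and that call was lost without anergic 2, anergic 3, Treg 1 or Treg 2 (adjusted p 0.07 to 0.175). A peak 21.5 kb downstream of the Ifit1 start was lower in anergic than in naive cells (-1.07 ± 0.34, adjusted p = 0.0118), a call lost without naive 1 (adjusted p = 0.158). The shared peak at the Ifit1 start, with 2 ISRE cores, had 255, 327 and 306 in anergic, 343, 255 and 452 in Treg, 372, 430.3 and 323 in Teff and 380.2 and 352 in naive libraries. The anergic libraries lay below both naive libraries, all other pairs of groups overlapped, and no comparison passed.

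Isg15, a ubiquitin-like protein that is joined to other proteins after interferon, had its only peak at the promoter (chr4:156200693-156201358) with 481, 509 and 537 in the anergic libraries, 312, 432 and 439 in the Treg libraries, 427, 338 and 445 in the Teff libraries and 233 and 259 in the naive libraries. Both naive libraries lay below all others, and the anergic libraries were the 3 highest. Against naive cells the change was 1.05 ± 0.18, adjusted p = 5.2e-05 in anergic, 0.66 ± 0.18, adjusted p = 0.00537 in Treg and 0.70 ± 0.18, adjusted p = 0.00396 in Teff cells. The Treg call was lost without naive 1 (adjusted p = 0.06) and the Teff call without naive 1 (adjusted p = 0.0501). No comparison among the 3 antigen-experienced subsets passed at Isg15.

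Trim25 encodes a ubiquitin ligase that in human cells acts on RIG-I and is itself a target of ISG15. Its promoter had 1653, 1505 and 1718 in anergic cells, 1748, 1769 and 2012 in Treg, 1817, 1719.5 and 1782 in Teff and 1780.1 and 1917 in naive cells. The anergic libraries lay below all others, but no comparison passed. Downstream of the gene, a pair of intergenic peaks showed the widest differences between anergic and Treg cells. The peak 23.2 kb from the start (chr11:89022450-89022775) had 54.7, 25.8 and 31.6 in the anergic libraries, 258, 304 and 241 in the Treg libraries, 48.5, 66.9 and 41.7 in the Teff libraries and 401 and 323 in the naive libraries. Treg and naive libraries were all above 240, while anergic and Teff libraries were all under 67. Anergic cells fell relative to Treg (-2.87 ± 0.28, adjusted p = 1.2e-07) and naive cells (-3.31 ± 0.31, adjusted p = 8.8e-09), and Treg cells rose relative to Teff cells (2.35 ± 0.28, adjusted p = 1.2e-06). Teff cells also passed as lower than naive cells (-2.79). The second peak, 24.9 kb from the start (chr11:89023992-89024594), had 347, 293 and 249 in anergic cells, 1697, 1626 and 1835 in Treg, 525, 666 and 597 in Teff and 2304 and 2009.9 in naive cells. The same groups were high and low, and here anergic cells also lay below Teff cells (-1.01 ± 0.14, adjusted p = 5.4e-06). Treg against naive cells passed at neither peak. The pair lies 38.1 and 36.5 kb from the start of Dgke, so the link to Trim25 rests on distance. A peak 5.61 kb before Trim25 was also lower in anergic than in Teff (-0.76 ± 0.18, adjusted p = 0.00198) and naive cells (-0.93 ± 0.20, adjusted p = 0.000437).

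Parp9 and Dtx3l form a complex of an ADP-ribosyltransferase family member and a ubiquitin ligase, and share a divergent promoter. That promoter peak (chr16:35938381-35939165, 1 core) had 506, 578 and 582 in anergic cells, 632, 543 and 593 in Treg, 686, 667 and 708 in Teff and 654 and 661 in naive cells and passed in no comparison. A peak 32.9 kb before Parp9 (chr16:35905351-35905715, intergenic) had 249, 218 and 185 in anergic cells, 225, 319 and 309 in Treg, 403, 432 and 422 in Teff and 264 and 231 in naive cells. The Teff libraries were the 3 highest. The peak was lower in anergic (-0.95 ± 0.18, adjusted p = 0.00019) and in Treg cells (-0.57 ± 0.18, adjusted p = 0.0156) than in Teff cells, and the Treg call was lost without Treg 1 or Teff 2 (adjusted p 0.06 to 0.105) and under total-read scaling (adjusted p = 0.059). Trim30a, a TRIM family ligase, had a peak at each of 2 annotated starts. The one at chr7:104446006-104446676 was higher in anergic than in Treg cells (0.46 ± 0.14, adjusted p = 0.0123), a call lost without anergic 3 (adjusted p = 0.065) and under total-read scaling (adjusted p = 0.070). Parp14, a mono-ADP-ribosyltransferase, had a steady promoter, and its intronic peak 2.06 kb in, with 1 core, rose against naive cells in anergic (0.92 ± 0.19, adjusted p = 0.000357), Treg (0.82 ± 0.19, adjusted p = 0.00146) and Teff cells (0.55 ± 0.19, adjusted p = 0.0275). The Teff call was lost without Teff 1, Teff 2 or naive 2 (adjusted p 0.058 to 0.209).

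GTPase genes had more signal in antigen-experienced than in naive cells wherever they passed in those comparisons. Guanylate-binding proteins act against pathogens inside cells, and an intronic peak 2.10 kb into Gbp3 (chr3:142562397-142562524) had 89.5, 89.1 and 94.7 in the anergic libraries, 75.5, 117 and 93.7 in the Treg libraries, 38.8, 76.8 and 73.3 in the Teff libraries and 7.31 and 3.097 in the naive libraries. Both naive libraries lay below all others, and the lower one rests on 4 reads. The log2 fold change against naive cells was 3.98 ± 0.41, adjusted p = 4.1e-08 in anergic, 4.02 ± 0.41, adjusted p = 6.6e-08 in Treg and 3.39 ± 0.41, adjusted p = 8.9e-07 in Teff cells. A Gbp3 peak 9.66 kb before the start had 204, 127 and 129.6 in anergic cells, 74.3, 145 and 59.5 in Treg, 182, 192 and 120.0 in Teff and 13.8 and 24.0 in naive cells, again with both naive libraries below all others. It rose against naive cells by 2.97 in anergic, 2.18 in Treg and 3.08 in Teff cells. The Gbp3 promoter itself (chr3:142560233-142560970) had 912, 958 and 1054 in anergic cells, 1047, 930.2 and 1094 in Treg, 1010.0, 977 and 808 in Teff and 869 and 999.5 in naive cells and passed in no comparison. A peak 0.878 kb into Gbp3 was higher in anergic than in Teff cells (0.72 ± 0.25, adjusted p = 0.0346), a call lost without anergic 1, anergic 3, Teff 1 or Teff 2 (adjusted p 0.053 to 0.177). An intronic Gbp7 peak 3.04 kb in (chr3:142533174-142533581) had 234, 327 and 288 in anergic cells, 352, 238 and 398 in Treg, 251, 309.7 and 167 in Teff and 122 and 79.7 in naive cells. It rose against naive cells in anergic (1.50 ± 0.27, adjusted p = 6.4e-05), Treg (1.70 ± 0.27, adjusted p = 2.3e-05) and Teff cells (1.24 ± 0.27, adjusted p = 0.000754), without overlap. Gbp2 passed at 1 of 3 peaks, in Teff against naive cells (0.77 ± 0.31, adjusted p = 0.0483), a call lost without anergic 2, Treg 1, Treg 2, Treg 3, Teff 1, Teff 3, naive 1 or naive 2 (adjusted p 0.051 to 0.197).

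Mx proteins trap viral nucleocapsids. In the RefSeq annotation used here, the Mx1 and Mx2 transcripts at these peaks are non-coding (NR). The peaks therefore do not imply a working protein. The Mx1 promoter had 230.5, 216 and 165 in anergic cells, 141, 172 and 206 in Treg, 189.7, 209 and 180.0 in Teff and 146 and 108 in naive cells. It was higher in anergic (0.68 ± 0.23, adjusted p = 0.0198) and Teff cells (0.61 ± 0.23, adjusted p = 0.0427) than in naive cells. The anergic call was lost without anergic 1, anergic 2 or naive 2 (adjusted p 0.053 to 0.219), and the Teff call without Teff 1, Teff 2, Teff 3 or naive 2 (adjusted p 0.052 to 0.33). The Mx2 start (chr16:97535809-97536424) was higher in anergic than in Teff (0.49 ± 0.16, adjusted p = 0.0205) and naive cells (0.61 ± 0.18, adjusted p = 0.0063), and the calls were lost without anergic 1, anergic 2, Teff 1 or Teff 2 (adjusted p 0.063 to 0.071) and without naive 1 (adjusted p = 0.058). Of the 12 GTPase peaks, 6 rose in anergic, 4 in Treg and 7 in Teff cells against naive cells, and none fell. Of all peaks, 25.3% rose in anergic, 22.3% in Treg and 22.7% in Teff cells. The handling of reads that align to several members of a family (Gbp, Ifit, Oas, Mx and Trim30 genes have close copies) is not given in the sources used here.

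Samhd1 degrades deoxynucleotides and restricts viruses in resting cells, and with 8 peaks it was the gene with most of them. A peak in a coding exon, 13.2 kb from the start (chr2:157121609-157122165), had 196, 367 and 177 in the anergic libraries, 494, 483 and 525 in the Treg libraries, 301, 306 and 240.0 in the Teff libraries and 1376 and 983 in the naive libraries. Naive libraries were highest and Treg libraries next, with no overlap with anergic or Teff cells. Against naive cells it changed by -2.31 ± 0.24, adjusted p = 3.1e-08 in anergic, -1.21 ± 0.24, adjusted p = 0.000241 in Treg and -2.05 ± 0.24, adjusted p = 4.0e-07 in Teff cells, and Treg cells were higher than Teff cells (0.83 ± 0.21, adjusted p = 0.0042). A peak 3.04 kb before the start (chr2:157138053-157138222) had 76.3, 29.5 and 26.2 in anergic cells, 116, 132 and 128 in Treg, 115, 88.4 and 95.0 in Teff and 95.1 and 86.7 in naive cells. All 3 anergic libraries lay below all others, 2 of them by a wide margin, and the change was -1.32 ± 0.32, adjusted p = 0.0029 against Teff and -1.66 ± 0.32, adjusted p = 0.000483 against Treg cells. The promoter (chr2:157134340-157135489) rose in Treg against naive cells (0.63 ± 0.14, adjusted p = 0.00108). It also rose in anergic (0.54 ± 0.14, adjusted p = 0.00304) and Teff cells (0.39 ± 0.14, adjusted p = 0.0326), and these calls were lost without naive 1 (adjusted p = 0.069) and without Teff 2, Teff 3 or naive 1 (adjusted p 0.064 to 0.285). A pair of calls at faint intronic peaks was lost when any 1 of several libraries was left out. The peak 5.32 kb in was higher in anergic than in Teff cells (0.87 ± 0.30, adjusted p = 0.0311), lost without anergic 2, anergic 3, Teff 1 or Teff 2 (adjusted p 0.053 to 0.134). The peak 17.9 kb in was higher in Treg than in naive cells (1.12 ± 0.37, adjusted p = 0.0173), lost without Treg 2, Treg 3 or naive 1 (adjusted p 0.065 to 0.13).

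Adar edits adenosine in double-stranded RNA to inosine. The start-site peak of its upstream start (chr3:89714331-89715546) had 933, 936 and 934 in the anergic libraries, 599, 628 and 704 in the Treg libraries, 581, 579 and 798 in the Teff libraries and 761 and 712 in the naive libraries. Every anergic library lay above every other library. The change was 0.53 ± 0.14, adjusted p = 0.00389 against Teff and 0.54 ± 0.14, adjusted p = 0.00409 against Treg cells. An intronic Adar peak 3.47 kb before the next start passed in the same comparisons (0.53 against Teff and 0.51 against Treg cells), but not without anergic 2, anergic 3, Teff 1 or Teff 3 (adjusted p 0.082 to 0.124) and without anergic 2, anergic 3, Treg 1 or Treg 2 (adjusted p 0.064 to 0.201). The start-site peak of that next start had 2123 signal per kb, against 611 at the upstream start. It was highest in naive libraries (2394 and 2502). Anergic libraries had 1923 to 2163, Treg 1443 to 1593 and Teff 1413 to 2086.5. Anergic cells passed against Treg (0.41, adjusted p = 0.0114) but not Teff cells (0.24, adjusted p = 0.135). Treg (-0.67, adjusted p = 0.000331) and Teff cells (-0.50, adjusted p = 0.00479) were lower than naive cells. A faint intergenic peak 41.9 kb before the upstream start had 33.2, 53.2 and 28.2 in anergic cells, 28.2, 34.1 and 31.7 in Treg, 35.3, 46.2 and 11.7 in Teff and 118 and 185 in naive cells. It was lower than in naive cells in anergic (-1.97 ± 0.50, adjusted p = 0.00202), Treg (-2.21 ± 0.50, adjusted p = 0.001) and Teff cells (-2.41 ± 0.50, adjusted p = 0.000484). Rsad2 encodes viperin, which makes a chain-terminating nucleotide, and its start (chr12:26456062-26456711) had 923, 1066 and 999 in anergic cells, 898, 822 and 864 in Treg, 1221, 1125 and 1142 in Teff and 1211 and 1148 in naive cells. Treg cells were lower than Teff (-0.43 ± 0.11, adjusted p = 0.00472) and naive cells (-0.45 ± 0.12, adjusted p = 0.005), and the call against naive cells was lost without naive 1 (adjusted p = 0.061) and under total-read scaling (adjusted p = 0.057). Cmpk2, the nucleotide kinase beside Rsad2, fell in anergic (-0.49 ± 0.13, adjusted p = 0.00603) and Treg cells (-0.42 ± 0.13, adjusted p = 0.0171) against Teff cells, and the Treg call was lost without Treg 3 or Teff 2 (adjusted p 0.073 to 0.099). Isg20, an RNA exonuclease, was higher at its start in anergic than in Treg (0.45 ± 0.14, adjusted p = 0.0161) and naive cells (0.56 ± 0.16, adjusted p = 0.0045), and these calls were lost without anergic 2 or Treg 1 (adjusted p 0.057 to 0.097) and without naive 1 (adjusted p = 0.124).

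Bst2, or tetherin, which holds budding virus at the cell surface, had 1 peak (chr8:71537122-71538005) with 920.2, 1133 and 1415 in anergic cells, 1131, 1047 and 1208 in Treg, 1190.0, 1159 and 1132 in Teff and 1204 and 1151 in naive cells. It overlapped in all comparisons, and its group means spanned 0.06 on the log2 scale, the smallest span of all 91 peaks. Ifi35 fell at its start in Treg against naive cells (-0.74 ± 0.18, adjusted p = 0.00224), a call lost without naive 2 (adjusted p = 0.051). Rtp4, with 4 cores at its promoter, and Xaf1 passed in no comparison.

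Anergic against Teff cells asks what separates the unresponsive cells from other antigen-experienced cells. Of the 91 peaks, 7 were higher and 11 lower, which is 19.8% against 32.8% of all tested peaks, of which 15.9% were higher and 16.8% lower. At start-site peaks 3 were higher and 3 lower of 43, which is 14.0% against 16.0% of all start-site peaks. At distal peaks 4 were higher and 8 lower of 48, which is 25.0% against 41.1%. The median log2 fold change was -0.09 over the 91 peaks and -0.00069 over all peaks. The higher count was 4 without anergic 2, anergic 3, Teff 1 or Teff 2, and the lower count was 7 without Teff 1 or Teff 2. Higher peaks included those of Ifih1, Adar and Mx2, and lower ones those of Oasl2, Oas3, Parp9, Trim25 and Cmpk2, while Usp18 and Samhd1 each had peaks in both directions.

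Anergic against Treg cells sets the tolerant subsets side by side. Of the 91 peaks, 13 were higher and 9 lower, which is 24.2% against 34.1% of all peaks, of which 19.4% were higher and 14.8% lower. At start sites 8 were higher and 1 lower of 43. Of all start-site peaks 27.5% passed, 20.6% higher and 6.9% lower, a skew in the same direction. At distal peaks 5 were higher and 8 lower of 48, and 37.4% of all distal peaks passed. The median was 0.05 over the 91 peaks and 0.04 over all peaks. Scaling to total reads shifted the median of all peaks by -0.13 and gave 4 higher and 14 lower. The higher count was 6 without anergic 2 or anergic 3 and 8 without Treg 1. The lower count was 6 at the lowest with a library left out.

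Treg against Teff cells gave 6 higher and 13 lower of 91, which is 20.9% against 32.6% of all peaks, of which 14.4% were higher and 18.2% lower. At start sites 1 was higher and 7 lower of 43. Of all start-site peaks 23.4% passed, 5.95% higher and 17.5% lower, again a skew in the same direction. At distal peaks 5 were higher and 6 lower of 48, and 37.2% of all distal peaks passed. The median was -0.08 over the 91 peaks and -0.02 over all peaks. Scaling to total reads shifted the median of all peaks by 0.10 and gave 9 higher and 8 lower. The higher count was 3 without Treg 3, and the lower count 8 without Teff 2. The lower start-site peaks included both of Oasl2 and those of Ddx58, Rsad2 and Cmpk2.

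Anergic against naive cells gave 19 higher and 17 lower of 91, which is 39.6% against 50.5% of all peaks, of which 25.3% were higher and 25.1% lower. At start sites 9 were higher and 5 lower of 43, and 31.9% of all start-site peaks passed, 15.1% higher and 16.8% lower. At distal peaks 10 were higher and 12 lower of 48, and 59.8% of all distal peaks passed. The lower count was 10 without naive 1. Treg against naive cells gave 15 higher and 17 lower (35.2%, against 45.3% of all peaks, 22.3% higher and 23.0% lower). At start sites 5 were higher and 10 lower, against 39.3% of all start-site peaks that passed (11.1% higher and 28.3% lower). At distal peaks 10 were higher and 7 lower, against 48.2% of all distal peaks that passed. Scaling to total reads shifted the median of all peaks by 0.17 and gave 20 higher and 11 lower, and the lower count was 11 without naive 1. Teff against naive cells gave 18 higher and 9 lower (29.7%, against 40.1% of all peaks, 22.7% higher and 17.4% lower). At start sites 8 were higher and 2 lower, against 25.0% of all start-site peaks that passed (12.3% higher and 12.6% lower). At distal peaks 10 were higher and 7 lower, against 47.6% of all distal peaks that passed. The higher count was 11 without naive 1 or naive 2. The 3 comparisons share the naive libraries, so their counts are not independent. The medians over the 91 peaks were 0.03 in anergic, 0.02 in Treg and 0.06 in Teff cells against naive cells, and -0.04, -0.04 and -0.03 over all peaks.

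**Figure D5:**
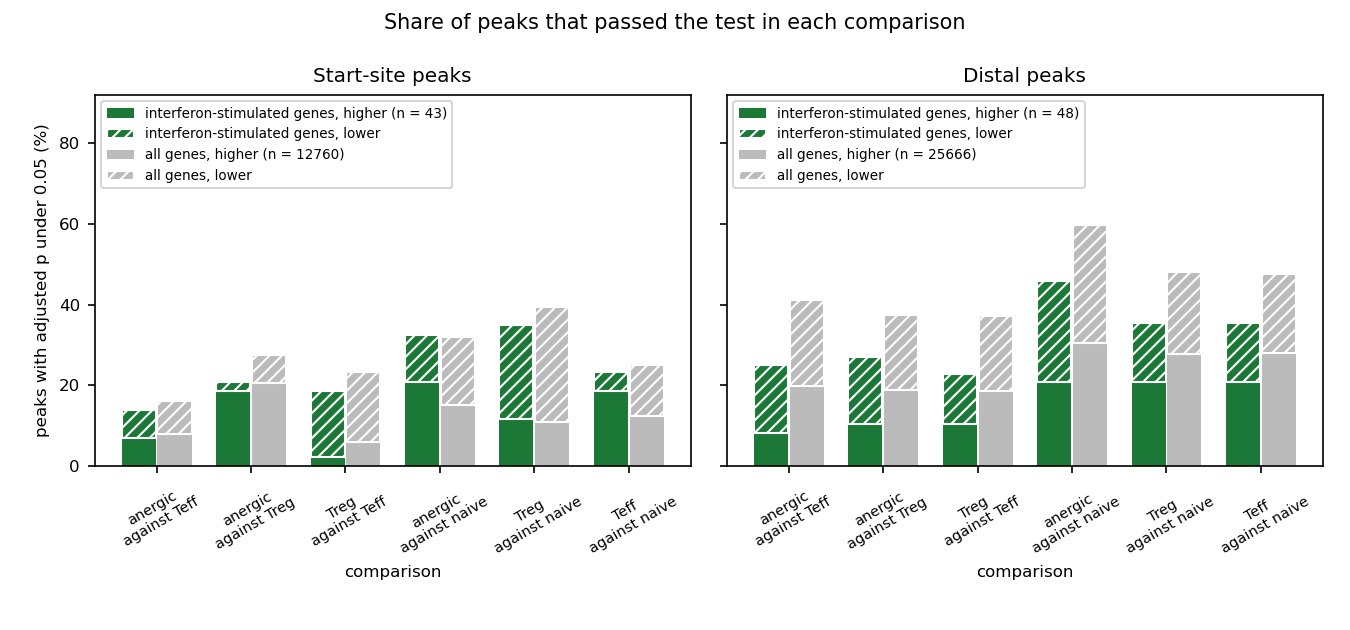
Bars give the share of peaks with an adjusted p under 0.05 in each comparison, in percent, split into higher (plain) and lower (hatched) in the first-named group, for interferon-stimulated genes (green) and all genes (grey) at start-site peaks (left) and distal peaks (right). At distal peaks the share of interferon-stimulated genes lies under that of all genes in each of the 6 comparisons.

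The counts were also split by the ISRE core. A core was held by 22 start-site and 7 distal peaks of these genes, against 1044 and 1767 of all peaks. Start-site peaks as a whole passed less often than distal peaks (16.0% against 41.1% in anergic against Teff cells). The shares below therefore do not separate the core from the kind of peak. Of the 29 peaks with a core, 4 passed in anergic against Teff cells (13.8%, against 34.8% of all peaks with a core), 5 in anergic against Treg cells (17.2%, against 37.4%) and 4 in Treg against Teff cells (13.8%, against 34.5%). Of the 62 without a core, 14 (22.6%), 17 (27.4%) and 15 (24.2%) passed in the same comparisons, against 32.6%, 33.9% and 32.5% of all peaks without one. Against naive cells, 9 peaks with a core passed in anergic (31.0%, against 51.1%), 8 in Treg (27.6%, against 50.1%) and 6 in Teff cells (20.7%, against 42.9%). Of those without, 27 (43.5%), 24 (38.7%) and 21 (33.9%) passed, against 50.5%, 44.9% and 39.9%.

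Other genes of the pathway were read from lists of their own. The 12 interferon signalling genes, among them Jak1, Irf9 and Socs1, had 100 peaks, of which 21 were higher and 30 lower in anergic against Teff cells, 20 and 28 in anergic against Treg cells, and 14 and 17 in Treg against Teff cells. Against naive cells 32 were higher and 36 lower in anergic, 32 and 19 in Treg, and 35 and 14 in Teff cells. In this order of comparisons, 51, 48, 31, 68, 51 and 49% of the 100 peaks passed, against 32.8, 34.1, 32.6, 50.5, 45.3 and 40.1% of all peaks. Of 56 further interferon-induced genes 46 had a peak, 125 in all, and 18 were higher and 18 lower in anergic against Teff cells, 21 and 19 in anergic against Treg cells, and 12 and 17 in Treg against Teff cells. Against naive cells 39 were higher and 18 lower in anergic, 43 and 15 in Treg, and 39 and 13 in Teff cells. In the same order, 28.8, 32, 23.2, 45.6, 46.4 and 41.6% of the 125 peaks passed, to be read against the same shares of all peaks. Of 10 adaptors and sensors upstream of interferon, such as Mavs and Tbk1, 7 had a peak, 21 in all, and 1 was higher and 2 lower in anergic against Teff cells, 1 and 0 in anergic against Treg cells, and 0 and 4 in Treg against Teff cells. Against naive cells 6 were higher and 1 lower in anergic, 6 and 2 in Treg, and 7 and 1 in Teff cells. In the same order, 14.3, 4.76, 19.0, 33.3, 38.1 and 38.1% of these 21 peaks passed, each under the share of all peaks.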

How the data were processed

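ATAC-seq signal was read from the deposited table of consensus peaks. Per the study's design text, the authors trimmed reads with Trimmomatic 0.38.1, aligned them to mm10 with Bowtie2 2.3.3.1, sorted them with SAMtools 1.13, called peaks per library with Genrich 0.5, which removes PCR duplicates and adjusts to the transposase cut site, and set 38509 consensus peaks with DiffBind 2.10.0. The deposited signal values are whole reads times a factor of each library: 100% of values were whole within 0.01 read once divided by the smallest value of their column, and how the factor was set is not given in the sources used here. Peak starts in the table count from 0 and were raised by 1.

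Peaks were assigned to the nearest RefSeq start (NM or NR, GRCm38) by their centre. Tests used limma 3.58.1 with a trend on log2(signal + 1), pseudocount 1, all 11 libraries in 1 fit with the group as its only term. edgeR's filter removed 16 peaks, Benjamini-Hochberg adjustment ran over the other 38493, and the threshold was 0.05. The same fit was also run on counts simulated for independent libraries and read for anergic against Teff cells alone. That run cannot show effects of shared animals or batches, and no result here rests on it. Alternatives used edgeR 4.0.16 and DESeq2 1.42.0 on the recovered reads, total-read and TMM scaling, no filter, a pseudocount of 8, a replicate block, the 2 groups alone, each library left out, assignment by the nearest edge and peaks within 10 kb. The sequencing depth, 14668425 to 68818591 reads in peaks, bounds counting error only. Motifs were searched on both strands of the whole peak.

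Described peaks are, per comparison, up to 6 higher and 6 lower peaks that passed without overlap between libraries, 1 a gene, ranked by fold change, and the start-site peaks of 12 named genes. Other peaks are given where they share a gene with these, chosen after their values were seen. The genes, lists and tests were chosen with earlier results of these data known. The signal tracks, where not part of this table, were not used here.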

Additional observations from a re-analysis of the deposited data

How the results depend on the processing

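With the settings changed 1 at a time, no named result turned its direction. Of 69 named results that passed, 50 passed the same way under all 19 alternatives and 19 were lost under some. Counts of peaks that passed moved by over 1.5 times as follows, and the cause was not tested unless stated. In anergic against Treg cells, 8 were higher with edgeR, 8 with TMM scaling and 4 with scaling to total reads, under which 14 were lower. Scaling to total reads gave 8 lower in Treg against Teff cells and 11 lower in Treg against naive cells. With peaks within 10 kb of the start alone, which leaves fewer peaks, 5 were lower in anergic against Treg cells, 2 higher in Treg against Teff cells, 10 lower in anergic against naive cells and 2 lower in Teff against naive cells. The share of peaks with an ISRE core was 65.9% when 1 mismatch was allowed, against 47.4% of all peaks. With each library left out in turn, the higher counts ran from 4 to 9 in anergic against Teff, 6 to 13 in anergic against Treg, 3 to 6 in Treg against Teff and 11 to 19 in Teff against naive cells. The lower counts ran from 7 to 13 in anergic against Teff, 8 to 14 in Treg against Teff, 10 to 17 in anergic against naive and 11 to 18 in Treg against naive cells. Leaving out a naive library leaves 1, which is then assumed to vary like the other groups.

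Libraries with the same number correlated at -0.11 to 0.16 in their deviations from the group means, and those with different numbers at -0.22 to 0.19. With 2 or 3 libraries a group, these values cannot show whether libraries with the same number share an animal, day or batch. With the replicate block, 7 were higher and 12 lower in anergic against Teff, 15 and 9 in anergic against Treg, 5 and 14 in Treg against Teff, 17 and 17 in anergic against naive, 14 and 17 in Treg against naive and 18 and 9 in Teff against naive cells. Signal at faint peaks rests on few reads, 4 at the lowest.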
